A study of Mus musculus with 12 samples.

Results

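The levels of 10 genes of the amino acid stress response were followed in mouse liver: Asns, Atf4, Atf5, Ddit3, Trib3, Chac1, Sesn2, Psat1, Phgdh and Ddit4. They were taken as the array probes annotated with one of these symbols, and each had 1 probe that named it alone, so the set is 10 of the 19938 genes measured. The animals were 12 male mice of strain C57BL/6J, with liver RNA on 1 array each, in 4 groups of 3: first-generation mTERT KO, mTERT WT, first-generation mTR KO and mTR WT. mTERT is the reverse transcriptase of telomerase, encoded by Tert, and mTR is its RNA template, encoded by Terc. Each line consisted of 3 sets of age- and sex-matched littermates, numbered 1 to 3, and the ages are not given in the sources used here. A first-generation knock-out has lost the enzyme for 1 generation only, and the labels name no treatment for any group. Values are log2 intensities, so a difference of 1 is a doubling. Because each liver was measured in bulk, fewer cells of a type and less RNA per cell cannot be told apart.

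The set was chosen by the measured Asns values of mTR KO and mTR WT livers, which were already known. The levels of all 10 genes in that comparison, and in the comparisons that contain it, are therefore given as a description without a test. Tests are given for KO against WT in the mTERT line, for mTR WT against mTERT WT (without Asns), and for set 1 against sets 2 and 3. The set 1 comparison was itself chosen with earlier results of these data known. A level of 4.34, the mean of the 12 arrays' 95th percentiles over 1027 olfactory receptor genes, which liver is not known to use, served as the background level.

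When a cell runs short of an amino acid, uncharged tRNA activates the kinase Gcn2, which phosphorylates the initiation factor eIF2. General translation drops while the transcription factor Atf4 is translated more, so that Atf4 activity can change without a change of its mRNA. Atf4 then binds short elements in its target genes, among them Asns, and raises amino acid synthesis, transport and tRNA charging. Stress in the endoplasmic reticulum reaches the same factor through the kinase Perk. In liver the pathway is known for its response to diets low in protein or in a single amino acid.

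The elements are shown because Asns is the textbook target of this response. In RefSeq (GRCm38.p6) all 10 genes had promoter windows, 12 in all, of 300 bases, from 250 bases before to 50 bases after the transcription start. The amino acid response element was searched as TGATGNAA on both strands, and the second Asns element as GTTACA on both strands; positions count from the first transcribed base as 1. The first was found in windows of 3 of the 10 genes and in 3.97% of all 32851 windows, and the second in 8.25% of all windows. Capitals mark the matches in the stretches below, each read 5′ to 3′ on the strand of the gene.
Asns, chr6:7693207-7693329, minus strand: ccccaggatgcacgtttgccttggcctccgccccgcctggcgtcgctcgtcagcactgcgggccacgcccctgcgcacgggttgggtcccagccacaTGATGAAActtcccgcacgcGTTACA
Chac1, chr2:119351019-119351078, plus strand: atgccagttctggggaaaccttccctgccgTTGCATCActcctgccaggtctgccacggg
Trib3, chr2:152344028-152344057, minus strand: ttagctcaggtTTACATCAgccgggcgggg
In Asns the element spanned −23 to −16, and GTTACA followed at −3 to 3. The match in Chac1 lay at −193 to −186 and that in Trib3 at 15 to 22, both on the strand opposite to the gene. A match is a description of these letters, and binding was not measured.

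Across the whole study no KO comparison and no WT comparison passed the threshold for any probe. At an adjusted p under 0.05 by limma, with Benjamini-Hochberg adjustment over 20197 probes, 0% of probes were called in the mTERT line, in the mTR line, in the average and the difference of both KO effects, and between the WT groups. At an unadjusted limma p under 0.05 the counts were 283, 195, 143, 293 and 525 in the same order. A limma fit with litter as the block (set number for the WT groups) called 0 probes in each as well. Its counts at an unadjusted p under 0.05 were higher, at 1037, 851, 639, 1264 and 1386, so the low counts of the main fit depend on leaving out the block. The Tert probe read 3.95, 4.07 and 4.15 in mTERT KO, against 4.13, 4.78 and 4.83 in mTERT WT. All mTERT KO values and that of mTERT WT 1 lay below background, and the groups overlapped. The Terc probe read at most 4.33 in mTR KO, against 4.24 in mTR WT, below background in both groups, and checks nothing about the deletion. All 8 hepatocyte markers were above background in every group, and their mean was 12.38 to 12.68 in the 12 arrays. Transcripts of pancreatic acinar cells were present in 5 arrays: the mean of the 12 measured markers of 13 listed was 10.02 for mTERT KO 1, 11.46 for mTR KO 1, 7.56 for mTERT WT 1, 9.08 for mTERT WT 2 and 6.98 for mTR WT 2. The remaining 7 arrays lay between 3.78 and 4.0. Skeletal muscle markers averaged 6.97 for mTERT WT 1 and 6.60 for mTERT WT 3, where no further array exceeded 4.54. For the 10 genes, a value without these 5 arrays is given where a printed KO minus WT difference changed sign or a call ended. The mTERT WT group is then mTERT WT 3 alone, which carries muscle transcripts, and tests take its spread from the other groups.

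**Figure D1:**
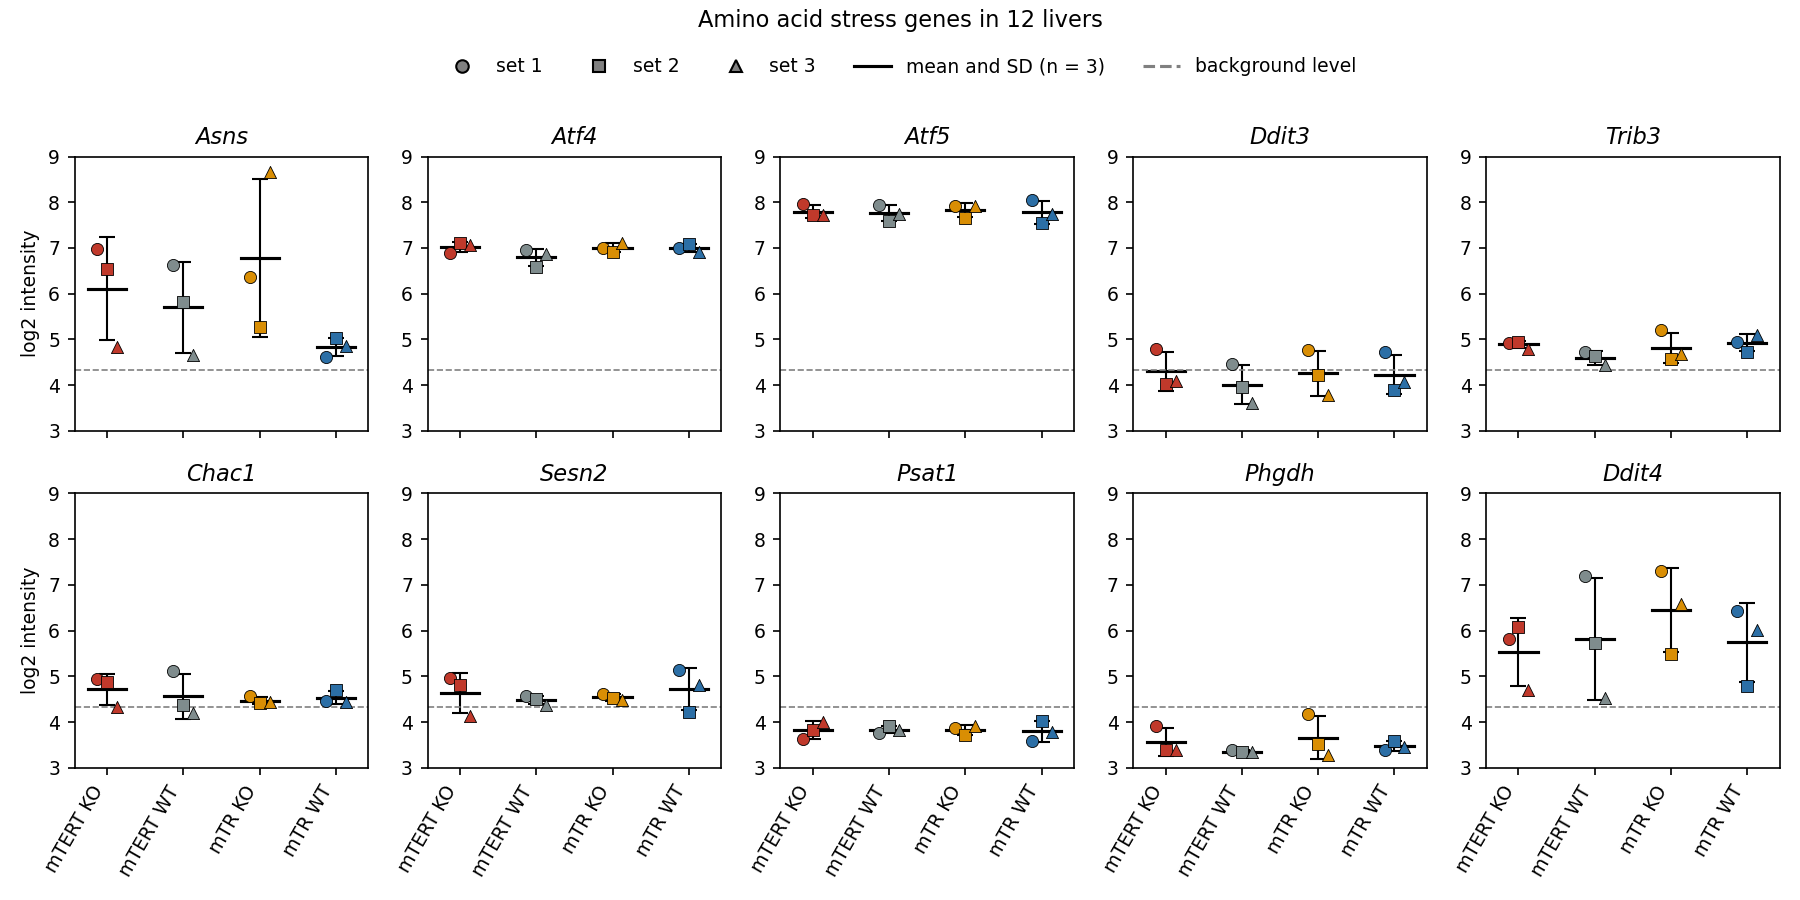
Log2 intensity of each of the 10 genes (vertical axis) in the 4 groups, with set 1 as circles, set 2 as squares and set 3 as triangles. Bars are the mean and SD of 3 arrays and the dashed line is the background level of 4.34; Asns runs from 4.62 to 8.66, while Psat1 and Phgdh stay under the line in all 12 arrays.

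Asns encodes asparagine synthetase, which makes asparagine from aspartate and glutamine. Its probe read 6.98, 6.53 and 4.82 in mTERT KO 1, 2 and 3, against 6.62, 5.82 and 4.65 in mTERT WT 1, 2 and 3. It read 6.37, 5.28 and 8.66 in mTR KO 1, 2 and 3, against 4.62, 5.02 and 4.86 in mTR WT 1, 2 and 3. All 12 values were above background, and the highest by far was that of 1 animal, mTR KO 3. The 3 mTR WT livers were alike, with an SD of 0.201 (n = 3), whereas the SD was 1.73 for mTR KO, 1.14 for mTERT KO and 0.987 for mTERT WT (n = 3 each). The mTR KO and mTR WT ranges did not overlap, which held for 1.84% of all probes in that direction; nothing is read from this, since the gene was chosen for it.

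The group means of Asns, from high to low, were 6.77 for mTR KO, 6.11 for mTERT KO, 5.70 for mTERT WT and 4.83 for mTR WT. Neighbours in this order lay 0.66, 0.41 and 0.86 apart, each less than the SD of at least 1 group of the pair. Asns exceeded the mTR WT mean by 1.94 in mTR KO (SE 0.788). This is a description without a test or interval, since the set was chosen by these values. Without mTR KO 3 this difference was 0.99, and without mTR KO 2 it was 2.69. In the mTERT line the KO mean exceeded the WT mean by 0.41 (SE 0.788, 95% interval −1.31 to 2.14), with a limma adjusted p of 1.00. With the litter as a block, the limma SE of this difference was 0.477 and the adjusted p 0.984. The sign of that difference turned without mTERT KO 1 (−0.02) and without mTERT WT 3 (−0.11), and it was 1.06 without mTERT KO 3. The mTR KO effect minus the mTERT KO effect was 1.53 (SE 1.11), and 0.58 without mTR KO 3. It contains the mTR comparison, so it too is given without a test or interval.

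Compared with the littermate of the same set, Asns was higher in the KO in 6 of 6 litters. The KO minus WT differences were 0.36, 0.71 and 0.17 in sets 1, 2 and 3 of the mTERT line. For sets 1, 2 and 3 of the mTR line they were 1.75, 0.26 and 3.81. They therefore ran over a wide range within each line, and set 2 of the mTR line was close to the small differences of the mTERT line. Littermates were not always alike in pancreas transcripts. The acinar marker mean was 11.46 in mTR KO 1 against 3.86 in mTR WT 1. It was 3.78 in mTERT KO 2 against 9.08 in mTERT WT 2, and 3.84 in mTR KO 2 against 6.98 in mTR WT 2. The part this has in the Asns differences was not tested. Of all 20197 probes, 1.11% were higher in the KO in 6 of 6 litters and 1.08% were lower in 6 of 6. With the mTR line used in choosing the gene, the independent part of this count is the mTERT line, where 13.9% of all probes were higher in 3 of 3 litters.

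**Figure D2:**
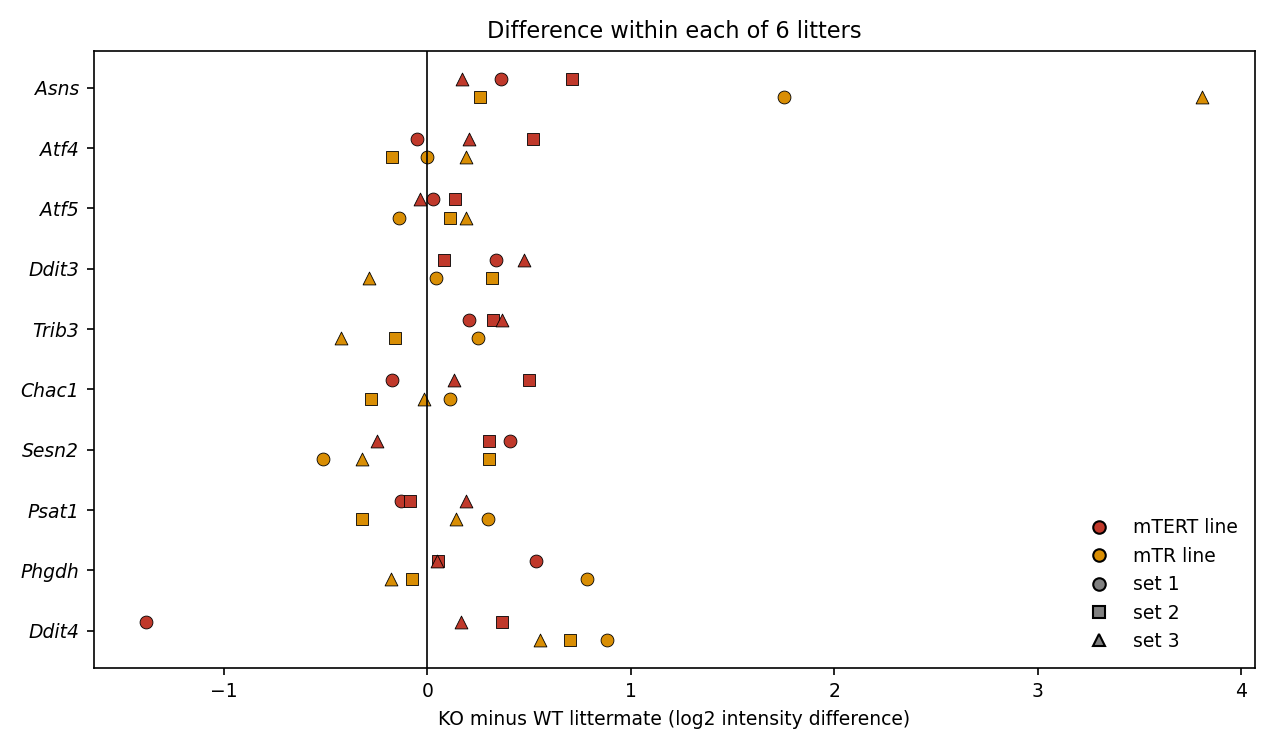
Difference in log2 intensity between each KO animal and its WT littermate (horizontal axis) for the 10 genes (rows), with the mTERT line in red, the mTR line in orange, and set 1, 2 and 3 as circles, squares and triangles. All 6 Asns points lie right of 0, from 0.17 to 3.81, whereas Ddit4 has 1 point at −1.38 and the other five right of 0.

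Asns was among the most variable genes of these livers. Its range over the 12 arrays, 4.04, ranked 43 of 14159 tested genes, where the median range was 0.53, and 0.304% of genes had a range at least as wide. The SD within groups, 1.15, ranked 58 of 14159, against a median of 0.17. Both include mTR KO 3, which took part in the choice of the gene. Among the other genes of the set, Ddit4 stood nearest, with a range of 2.77 and an SD within groups of 0.988, rank 82 for each. Atf4 and Atf5 had ranges of 0.52 and 0.51, close to the median gene.

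Exocrine pancreas is known to express Asns strongly, so the levels are set beside the pancreas markers. In the 5 arrays with pancreas transcripts Asns was 5.02 to 6.98, with a median of 6.37, and in the 7 arrays without them it was 4.62 to 8.66, with a median of 4.86. The array with the most pancreas transcript, mTR KO 1, read 6.37, lower than the pancreas-free mTR KO 3 at 8.66 and mTERT KO 2 at 6.53. The part that pancreas RNA has in the Asns level of those 5 arrays was not tested. In litter 3 of both lines KO and WT were free of these transcripts, and there the Asns difference was 0.17 for mTERT, while it was 3.81 for mTR; mTERT WT 3 carries the muscle transcripts given above. Without the 5 arrays the KO minus WT difference was 1.02 (limma adjusted p 1.00) in the mTERT line, where the single WT array, mTERT WT 3, is taken to vary like the other groups. For mTR it was 2.23 (no test), over 2 KO and 2 WT arrays.

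**Figure D3:**
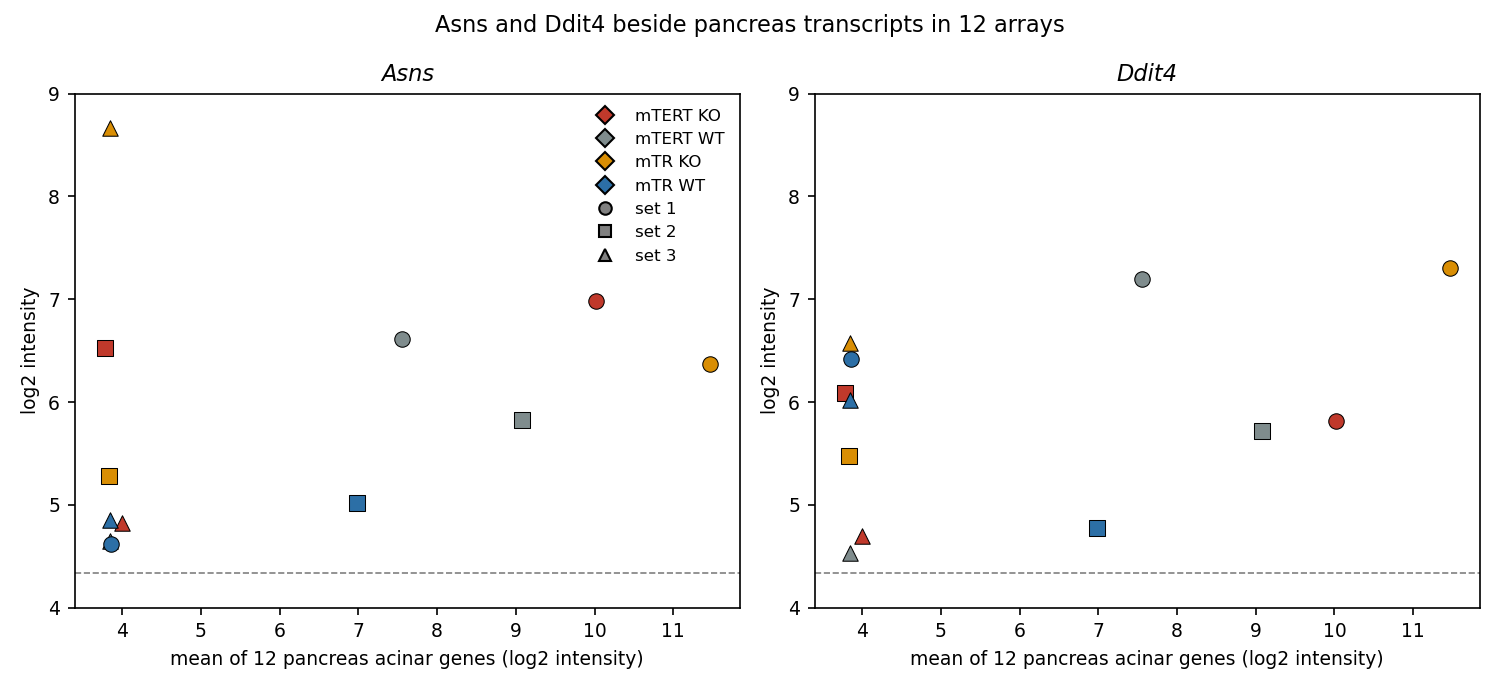
Log2 intensity of Asns (left) and Ddit4 (right) against the mean log2 intensity of 12 pancreas acinar genes in the 12 arrays, coloured by group, with set 1, 2 and 3 as circles, squares and triangles and the background level dashed. The highest Asns value, 8.66 in mTR KO 3, stands among the arrays free of pancreas transcripts at the left; mTERT WT 3 at 4.65 is partly hidden by mTR WT 1 at 4.62.

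Atf4 and Atf5 are the bZIP transcription factors of the set. Atf4, the main effector of the response, read 6.90, 7.11 and 7.06 in mTERT KO, against 6.95, 6.59 and 6.86 in mTERT WT. It read 6.99, 6.92 and 7.11 in mTR KO, against 6.99, 7.09 and 6.92 in mTR WT. The groups overlapped in both lines. In the mTERT line the difference was 0.22 (SE 0.114, 95% interval −0.03 to 0.47) with an unadjusted limma p of 0.0746 and an adjusted p of 1.00. In the mTR line it was 0.0041 (SE 0.114, no test). The liver with the highest Asns, mTR KO 3, also had the highest Atf4 value, at 7.1077, level with the 7.1075 of mTERT KO 2.

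Atf5, a related factor whose translation is controlled in the same way, read 7.96, 7.72 and 7.71 in mTERT KO, against 7.93, 7.59 and 7.75 in mTERT WT. It read 7.91, 7.66 and 7.92 in mTR KO, against 8.06, 7.55 and 7.73 in mTR WT. These ranges also overlapped. The KO minus WT difference was 0.04 (SE 0.146, adjusted p 1.00 by limma) in the mTERT line. For mTR it was 0.05 (SE 0.146), and it turned to −0.06 without mTR WT 2 and to −0.10 without the 5 arrays with pancreas transcripts. In the mTERT line it turned to −0.034 without those arrays.

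Ddit3, Trib3 and Chac1 are induced downstream of Atf4. Ddit3 encodes Chop, a factor of prolonged stress that can lead to cell death. It read 4.79, 4.03 and 4.08 in mTERT KO, against 4.46, 3.95 and 3.61 in mTERT WT. In mTR KO it read 4.76, 4.22 and 3.79, against 4.71, 3.90 and 4.08 in mTR WT. Only the 4 arrays of set 1, the first value of each group, lay above the background level, so Ddit3 was not detected in the other 8. The KO minus WT difference was 0.30 (SE 0.311, adjusted p 1.00 by limma) in the mTERT line, and 0.05 without mTERT KO 1. For mTR it was 0.02 (SE 0.311), with −0.23 without mTR KO 1, 0.27 without mTR WT 1 and −0.39 without the 5 arrays with pancreas transcripts.

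Trib3 encodes a pseudokinase that binds Atf4 and the kinase Akt. It read 4.92, 4.95 and 4.80 in mTERT KO, against 4.72, 4.63 and 4.43 in mTERT WT. These groups did not overlap, and 2.47% of all probes were likewise higher without overlap in the mTERT line. The difference was 0.30 (SE 0.162, 95% interval −0.06 to 0.65), with an unadjusted limma p of 0.0919 and an adjusted p of 1.00. In the mTR line Trib3 read 5.20, 4.57 and 4.67 in KO, against 4.95, 4.73 and 5.10 in WT, a difference of −0.11 (SE 0.162) that was −0.40 without the arrays with pancreas transcripts. In mTR KO 3, with the highest Asns of all, the KO minus WT difference within the litter was −0.43. The 3 mTR WT values were above the 3 mTERT WT values by 0.33 on average (SE 0.162, limma adjusted p 1.00), and 3.61% of all probes were higher without overlap in that comparison.

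Chac1 encodes an enzyme that breaks down glutathione. It read 4.94, 4.87 and 4.33 in mTERT KO, against 5.12, 4.37 and 4.20 in mTERT WT. It read 4.57, 4.42 and 4.43 in mTR KO, against 4.45, 4.69 and 4.44 in mTR WT. Of the 12 values 10 were above background, and the groups overlapped in both lines. The KO minus WT differences were 0.15 (SE 0.222, limma adjusted p 1.00) for mTERT and −0.06 (SE 0.222) for mTR.

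Sesn2 and Ddit4 link the response to the growth kinase complex mTORC1, which both restrain. Sesn2, a leucine sensor, read 4.97, 4.80 and 4.13 in mTERT KO, against 4.57, 4.50 and 4.38 in mTERT WT. It read 4.62, 4.52 and 4.48 in mTR KO, against 5.13, 4.22 and 4.80 in mTR WT. Values overlapped in both lines, and 10 of 12 were above background. The differences were 0.15 (SE 0.235, limma adjusted p 1.00) for mTERT and −0.18 (SE 0.235) for mTR.

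Ddit4, also known as Redd1, responds to hypoxia and glucocorticoids as well as to amino acid stress. It read 5.81, 6.09 and 4.70 in mTERT KO, against 7.20, 5.72 and 4.53 in mTERT WT. It read 7.31, 5.48 and 6.58 in mTR KO, against 6.42, 4.78 and 6.02 in mTR WT. The KO was above its littermate in 5 of 6 litters, by 0.55 to 0.88 in the mTR line, and the difference was −1.38 in set 1 of the mTERT line. The group ranges overlapped in both lines. In the mTERT line the difference was −0.28 (SE 0.678, 95% interval −1.77 to 1.20, limma adjusted p 1.00). With the litter as a block, its limma SE was 0.265 and the adjusted p 0.977. The difference was 0.41 without mTERT WT 1 and 0.86 without the 5 arrays with pancreas transcripts. In the mTR line the difference was 0.71 (SE 0.678, no test), and without mTR WT 2 it was 0.23. Without the 5 arrays with pancreas transcripts its sign turned, to −0.20.

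Psat1 and Phgdh encode enzymes of serine synthesis. Psat1 ran from 3.58 to 4.03 over the 12 arrays and Phgdh from 3.27 to 4.18. Neither was above background in any of the 12 arrays, and both lay below the filter on dim probes, so that 8 of the 10 genes entered the tests. The highest Phgdh values were 4.18 in mTR KO 1 and 3.92 in mTERT KO 1, the pair of KO arrays with pancreas transcripts; whether these move the probe was not tested.

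Seen as a set, 7 of the 8 tested genes were above 0 in mTERT KO against WT, with a median difference of 0.19, where the median over all probes was 0.01 and 54.4% were above 0. None of the 8 passed the threshold, as none of the 20197 probes did. One WT array, mTERT WT 3, with muscle markers at 6.60, was the lowest of the 12 for 4 of the 8 genes, against 8.25% of all tested genes; without it 5 of the 8 were above 0, with a median of 0.07. In mTR KO against WT 5 of the 8 were above 0, with a median of 0.01 against −0.01 over all probes. Without the 5 arrays with pancreas transcripts 2 of the 8, Asns (2.23) and Atf4 (0.06), were above 0 and the median was −0.15. Over all arrays Asns was 1.94 higher there, while Trib3, Chac1 and Sesn2 were at −0.11, −0.06 and −0.18. In mTR WT against mTERT WT 5 of the 8 were above 0, with a median of 0.11 and no call, where 54.5% of all probes were above 0. Without the 5 arrays it was 8 of 8 with a median of 0.42. The mTERT WT group is there the same low array, mTERT WT 3, alone, and the share over all probes was not counted. Asns was at −0.86 (SE 0.788), or 0.09 without the arrays with pancreas transcripts.

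The genes most like Asns over the arrays were found by Pearson's r among 14158 genes, a description in which all points share the same 12 arrays. The median r was −0.04, the 5th to 95th percentiles were −0.48 and 0.43, and 5 genes were over 0.8, 1 of them an olfactory receptor gene, at rank 3, which is counted and not named. The highest was Fbl, which encodes the methyltransferase fibrillarin of the nucleolus, with r = 0.88 (rho = 0.78) over 12 arrays and 0.72 over 10 arrays, without mTR KO 3 and mTERT KO 1, the arrays farthest from the Asns median. Fbl read 6.68, 6.35 and 6.13 in mTERT KO, against 6.53, 6.27 and 6.17 in mTERT WT. It read 6.45, 6.23 and 6.74 in mTR KO, against 6.30, 6.22 and 6.39 in mTR WT. Its highest array was, like that of Asns, mTR KO 3. Fbl ran from 6.13 to 6.74 over the 12 arrays, against 4.62 to 8.66 for Asns. Ecrg4, Figla, Sertad4 and Extl1 were the next genes named, at r = 0.84, 0.83, 0.82 and 0.79, all with means of 3.93 to 4.17, below the background level.

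With group means removed, the genes most like Asns were D2hgdh at r = 0.93, Fbl at 0.91, Eif2b3 at 0.90, Tmub1 at 0.90 and Pigf at 0.89 over the same 12 arrays. D2hgdh encodes D-2-hydroxyglutarate dehydrogenase, and its r with group means kept was 0.38. Eif2b3 encodes a subunit of eIF2B, the exchange factor that phosphorylated eIF2 inhibits. With group means kept, its r was 0.72 over 12 arrays and 0.65 without mTR KO 3. The r with group means removed was not computed without mTR KO 3. Within the set, r with Asns was 0.56 for Ddit4, 0.43 for Chac1, 0.38 for Atf5 and 0.21 for Atf4, and 0.11 for Sesn2, 0.08 for Ddit3 and 0.06 for Trib3. This order rests on mTR KO 3: over the 11 arrays without it, r was 0.79 for Chac1, 0.58 for Ddit4, 0.49 for Ddit3, 0.30 for Sesn2, 0.29 for Trib3, 0.29 for Atf5 and −0.05 for Atf4.

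The wider pathway was read from 8 lists of 77 genes, of which 72 were measured and 67 tested. None of the 67 passed the threshold in any KO or WT comparison, by limma with adjustment over all probes. In the mTERT line 34 were above and 33 below 0, with a median of 0.01. Those furthest from 0 in their lists were Hyou1, a chaperone of the endoplasmic reticulum, at −0.41 (SE 0.193), the tryptophanyl-tRNA synthetase gene Wars1 at −0.32 (SE 0.16), the aspartate aminotransferase gene Got1 at 0.27 (SE 0.264), and Sesn3, a relative of Sesn2, at 0.23 (SE 0.283). Others were Eif2ak3, which encodes Perk, at 0.20, the hormone gene Fgf21 at 0.19, the glycine transporter gene Slc6a9 at 0.17 and the bZIP factor gene Atf2 at 0.11.

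In the mTR line 50 of the 67 were above and 17 below 0, with a median of 0.05, where 45.9% of all probes were above 0. All 10 tested genes of amino acid and one-carbon synthesis, all 8 of the endoplasmic reticulum list and all 7 transporters were above 0, by 0.02 to 0.25, 0.02 to 0.34 and 0.0035 to 0.48. Not all kept that sign without the pancreas-bearing mTR KO 1 and mTR WT 2, and how many did was not counted. Herpud1 of the endoplasmic reticulum read 10.69 and 10.59 in mTR KO 2 and 3, against 11.15 and 10.79 in mTR WT 1 and 3. Slc38a2, a transporter, read 9.47 and 9.88 against 10.23 and 9.90 in the same arrays. Cbs of the synthesis list read 9.66 and 9.85 against 10.24 and 9.83. The transporter gene Slc7a5 kept its sign, at 4.91 and 5.10 against 4.79 and 4.51. The stress regulator gene Nupr1 was at 0.81 (SE 0.605): it read 6.91, 4.17 and 4.21 in mTR KO, where the first, mTR KO 1, holds the most pancreas transcript, and averaged 4.28 in mTR WT. Slc7a5, a transporter of large neutral amino acids, was at 0.48 (SE 0.176) and Eif2ak3 at 0.36 (SE 0.155). Hyou1 was at 0.34 (SE 0.193) and the folate enzyme gene Mthfd2 at 0.25 (SE 0.162). Each was named for the largest mTR difference of its list, so no p-value is given for it. The animal with the highest Asns, mTR KO 3, was the highest of the 12 arrays for 7 of the 67 genes, which is 10.4% of them against 5.95% of all tested genes. The widest of these leads was 0.11, for the serine hydroxymethyltransferase gene Shmt1, named after its values were seen, against the 1.69 by which its Asns led the next array.

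More probes differed by the set number of the litters than by genotype. That set 1 stands apart was known from earlier results of these data when this comparison was chosen. Its p-values and calls therefore describe the size of the difference and are no independent evidence of it. Set 1 holds 1 array of each group, and at the same adjusted threshold 38.2% of all probes differed between set 1 and sets 2 and 3, with group means in the fit; 17.1% were higher and 21.1% lower. What the set number stands for beyond littermates is not stated, and 3 of the 4 arrays of set 1 carry pancreas transcripts. All 8 tested genes of the stress set were above 0 in set 1, with a median of 0.32, where the median of all probes was −0.02, and 3 of the 8 passed the threshold. These were Ddit3, Atf5 and Ddit4.

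Ddit3 averaged 4.68 in set 1 and 3.96 in sets 2 and 3, a difference of 0.72 (SE 0.0888, limma adjusted p 8.29e-05). The 4 set 1 arrays read 4.46 to 4.79 and the other 8 read 3.61 to 4.22, without overlap, as for 10.4% of all probes in that direction. Since all 8 lay below background, the size is not a measured fold. Atf5 was 0.26 higher in set 1 (SE 0.074, limma adjusted p 0.0157), and 0.21 with an adjusted p of 0.0805 without mTR WT 1. Ddit4 averaged 6.68 in set 1 and 5.49 in sets 2 and 3, a difference of 1.20 (SE 0.357, limma adjusted p 0.0201). It lost its call without mTERT WT 1 (0.91, adjusted p 0.107) and without mTR KO 1 (1.17, adjusted p 0.060).

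Asns itself was 0.44 higher in set 1 (SE 0.564, limma adjusted p 0.565), and Atf4 differed by 0.0024 (SE 0.0814, adjusted p 0.984). Sesn2 was at 0.34 (SE 0.139, adjusted p 0.0708), Chac1 at 0.30 (SE 0.137, adjusted p 0.103) and Trib3 at 0.21 (SE 0.0995, adjusted p 0.111) in the same limma fit. Over the 7 arrays without pancreas transcripts, where set 1 is mTR WT 1 alone and is taken to vary like the other arrays, none of the 8 passed the threshold. Ddit3 was then at 0.64 (adjusted p 0.194), Atf5 at 0.32 (adjusted p 0.421) and Ddit4 at 0.40 (adjusted p 0.799), while Asns and Trib3 changed sign, at −0.24 and −0.15. In that 1 pancreas-free array of set 1 Ddit3 read 4.71, above every array of sets 2 and 3.

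**Figure D4:**
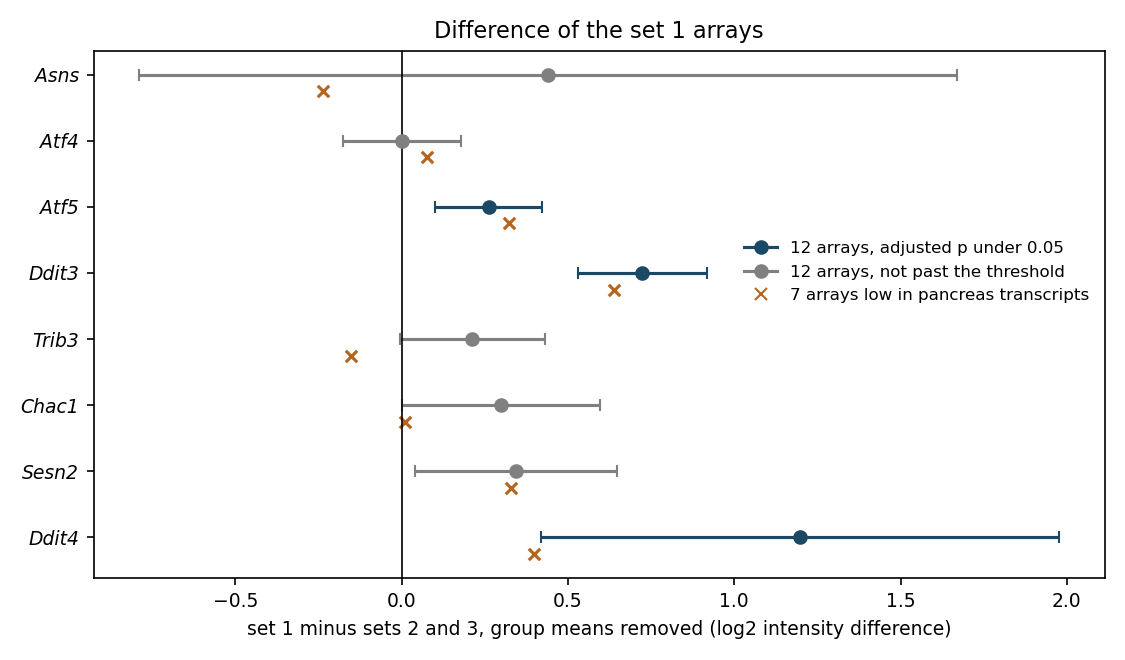
Difference in log2 intensity between set 1 and sets 2 and 3, with group means in the fit (horizontal axis), for the 8 tested genes (rows). Points and bars are the estimate and 95% interval over 12 arrays, dark where the limma adjusted p was under 0.05 (Atf5, Ddit3 and Ddit4); crosses are the estimates over the 7 arrays without pancreas transcripts, where Asns and Trib3 fall below 0.

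In the wider pathway 12 of the 67 genes rose and 10 fell in set 1 by limma, against 17.1% and 21.1% of all probes. Cebpb, a bZIP partner of Atf4 with a part in the acute phase response, rose by 1.35 (SE 0.17, adjusted p 0.000101). It read 8.81 for mTERT KO 1, 8.71 for mTR KO 1, 9.19 for mTERT WT 1 and 8.60 for mTR WT 1. The other 8 arrays read between 7.01 and 7.97, without overlap, as for 10.4% of all probes in that direction. Among the genes that rose were also Dnajb9 (0.68) and Herpud1 (0.59) of the endoplasmic reticulum, the alanine aminotransferase gene Gpt2 (0.51), the glutamine transporter gene Slc38a2 (0.50), the cystathionine synthase gene Cbs (0.45), the Gcn2 activator gene Gcn1 (0.42) and the mTORC1 inhibitor gene Tsc2 (0.35). The kinase gene Eif2ak2 fell by 0.72, Sesn3 fell by 0.67, Ddit4l fell by 0.44, Sesn1 fell by 0.37 and Atf2 fell by 0.26. So the sestrins were split, with Sesn1 and Sesn3 lower in set 1 and Sesn2 at 0.34 without a call, and Ddit4 and its relative Ddit4l lay on opposite sides of 0.

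All 22 called pathway genes kept their sign over the 7 arrays without pancreas transcripts, but 1 of them, Sesn3, passed the threshold there (−0.92, limma adjusted p 0.0395). With all 12 arrays left out in turn, 9 of the 22 passed in every fit, namely Cebpb, Eif2ak2, Sesn3, Gpt2, Cbs, Herpud1, Tsc2, Ddit4l and Atf2. Dnajb9 and Slc38a2 each lost the call in 3 of these fits, without mTERT WT 1 and mTR WT 1 among them, and Gcn1 and Sesn1 lost it without mTERT KO 1 and without mTR WT 1, in that order.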

How the data were processed

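Liver RNA of 12 mice was hybridised to 12 Affymetrix arrays of 1 colour, after Trizol extraction, RNeasy clean-up and 1 round of random-primed amplification, per the labels' protocols. The values are log2 intensities deposited by the authors, made with PLIER, Affymetrix Expression Console and GCOS 1.4, per the submitters' processing notes, which give no roles. The log base was read as 2 from the range of 2.62 to 13.83, and normalization, any added constant and any probe filter are not given in the sources used here. Array medians were 4.37 to 4.43, and the number of arrays limits the precision. The file lists 28853 probes, 21789 of them with 1 gene symbol, 1621 with several and 5443 without; the probe with the highest mean stood for each gene.

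Tested were probes whose mean reached the 30th percentile, 3.90 (20197 probes, 14159 genes). With limma 3.58.1 under R 4.3.3, 4 group means were fitted over 12 arrays, with a set 1 term for the set comparison, followed by eBayes, two-sided, with Benjamini-Hochberg adjustment over all probes tested and a threshold of 0.05. Errors are moderated standard errors of the fit without the litter, unless a block is named. With the litter as a block the SE of the mTERT difference was 0.118 for Atf4, against 0.114, and smaller than without it for the other tested genes of the set. The procedure was tested on simulated data with independent errors. Those data held no litter, set or pancreas effect, so that test does not cover such effects. Set numbers come from the sample titles and the series text states that sets were littermates; with group means removed, KO and WT of the same set correlated at 0.692, 0.135 and 0.623 for mTERT and 0.458, 0.151 and 0.552 for mTR, so the litter was a block in an alternative fit.

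The 10 genes, the pathway and marker lists and the set comparison were chosen with earlier results of these data known. Named by rule were the 10 genes and, per pathway list, up to 4 genes past the threshold with the smallest p, the 2 with the highest mean and the 1 with the largest difference in each KO comparison, and the 5 genes most like Asns after leaving out predicted genes and olfactory or vomeronasal receptors; not all are printed. Phgdh has a second probe shared with another gene, which was not used. Symbols were updated through RefSeq (GRCm38.p6), the source of the promoter sequences.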

Additional observations from a re-analysis of the deposited data

How the results depend on the processing

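Alternatives were quantile normalization, median centring, trend and robust settings in eBayes, no filter or one at the 50th percentile, the groups of a comparison alone, the litter as a replicate block, and leaving out each array, set 1 or the 5 pancreas-bearing arrays. The first 7 kept 0 calls in all KO and WT comparisons, and the litter block kept 0 calls in each and 7135 in set 1 (7709 without it), changing no call of the 8 tested genes. Without set 1 there was 1 call in each KO comparison and in their average. Without the pancreas-bearing arrays there were 72 calls in the mTERT line, 36 in the average, 38 in the difference of KO effects, 97 between WT groups and 272 in set 1; mTERT WT is then the muscle-bearing mTERT WT 3 alone, and set 1 is mTR WT 1 alone, with the spread taken from the other groups. Leaving out 1 array gave 0 to 41, 0 to 0, 0 to 28, 0 to 30 and 0 to 42 calls in the mTERT line, mTR line, average, difference and WT comparisons, the highest without mTERT WT 2 in all but the mTR line, and 5831 to 7660 in set 1; the cause was not tested. Signs turned in the mTERT line for Ddit4 (0.27 without set 1, 0.86 without pancreas-bearing arrays) and Atf5 (−0.034 without pancreas-bearing arrays). In the mTR line, described without a test, they turned without pancreas-bearing arrays for Ddit4 (−0.20), Ddit3 (−0.39) and Atf5 (−0.10). Leaving out 1 array there gave −0.047 to 0.049 for Atf4, −0.062 to 0.19 for Atf5, −0.23 to 0.27 for Ddit3, −0.30 to 0.0095 for Trib3, −0.11 to 0.022 for Chac1 and −0.43 to 0.029 for Sesn2. Between WT groups they turned without set 1 for Atf5 (−0.026), Chac1 (0.28) and Ddit4 (0.28), and without pancreas-bearing arrays for Chac1 (0.25) and Ddit4 (1.69). In set 1 Atf4 turned under median centring (−0.016), and Asns (−0.24) and Trib3 (−0.15) without pancreas-bearing arrays; Ddit4 lost its call with trend and robust settings (adjusted p 0.0759). Over left-out arrays the mTERT difference ran from −0.11 to 1.06 for Asns, −0.045 to 0.13 for Atf5, −0.030 to 0.43 for Chac1, −0.016 to 0.40 for Sesn2 and −0.93 to 0.41 for Ddit4. The WT difference ran from −0.11 to 0.14 for Atf5, −0.018 to 0.45 for Ddit3, −0.22 to 0.24 for Chac1 and −0.72 to 0.62 for Ddit4, and the set 1 difference of Atf4 from −0.073 to 0.065. Sesn2 (without mTERT KO 2), Chac1 (without mTR WT 1) and Trib3 (without mTR WT 3) passed the threshold in set 1 in 1 fit each. Averaging all probes of a gene was not run, since each of the 10 genes has 1 probe of its own, and set 1 cannot be compared without its own arrays. Ddit3, Psat1 and Phgdh are limited by signal at or below background.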
